A study of Mus musculus with 3 samples.

Results

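The transcripts of 9 endoderm transcription factors were measured in mouse embryoid bodies: Gata4, Gata6, Sox17, Sox7, Foxa1, Foxa2, Foxa3, Hnf4a and Prox1. They were found by gene name among the non-control spots of 3 two-colour Agilent arrays, which gave 11 probes for these 9 of 30458 gene names, out of 39429 probes in all. Sox17 and Foxa2 had 2 probes each and the others 1. The arrays compared wild type embryoid bodies with embryoid bodies of Dido3deltaCT mutant cells, in which the Dido3 protein lacks its C-terminal part. An embryoid body is a floating clump of embryonic stem cells in which early embryonic tissues arise, and both genotypes were kept for 10 days without LIF, the cytokine that maintains self-renewal. Each array held 1 mutant and 1 wild type sample, with 3 samples of each genotype, grown side by side and described as biological replicates. Mutant RNA was labelled with Cy3 for replicates 1 and 3, and with Cy5 for replicate 2.

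GATA4 and GATA6 are zinc finger factors that specify primitive endoderm, the tissue that lines the early blastocyst cavity and forms the parietal and visceral endoderm of the yolk sac. SOX7 and SOX17 are HMG-box factors of the same SOXF family, active in primitive endoderm and in endothelium. The forkhead factors FOXA1, FOXA2 and FOXA3 open chromatin for endoderm genes, the nuclear receptor HNF4A drives the secretory and lipid programme of visceral endoderm and liver, and the homeobox factor PROX1 acts in liver and lymphatic endothelium. Several of these factors have other sites of action, among them heart for GATA4 and GATA6 and notochord and floor plate for FOXA2.

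The 3 arrays did not behave alike. Over all 15428 genes tested, which are not independent replicates, log2 ratios of mutant over wild type correlated at 0.879 between replicates 1 and 3, but at 0.151 between replicates 1 and 2 and 0.18 between replicates 2 and 3. Replicate 2 is also the array with the other dye orientation, so sample and dye cannot be told apart there. The share of non-control spots that the scanner software called well above background was 46.5% to 62.5% for mutant RNA and 48.5% to 74.4% for wild type RNA. It went with the dye: Cy5 was above Cy3 on every array. The shares for Cy5 and Cy3 were 74.4% and 62.3% on replicate 1, 62.5% and 48.5% on replicate 2, and 63.3% and 46.5% on replicate 3. Whether the replicates are separate lines or repeat cultures of 1 line was not established here, so p-values measure the spread between these samples and arrays. Effects of the mutation and of any further difference between the mutant and wild type lines cannot be told apart. The Dido1 gene itself, which encodes Dido3, gave log2 ratios of 1.57, 2.16 and 1.48 at its brightest probe, and since it was not established whether this probe lies in the removed part, it checks no label. In RNA from whole embryoid bodies, fewer cells of a type and less RNA per cell cannot be told apart.

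Promoter sequence from RefSeq (GRCm38.p6) was matched for 5 of the 9 genes. It is shown for the FOXA family, whose members gave unequal ratios, and for Hnf4a. Each line holds the 250 bases before an annotated start, 5′ to 3′, and capitals mark matches to the motifs searched.
Foxa2, chr2:148045465-148045714, minus strand: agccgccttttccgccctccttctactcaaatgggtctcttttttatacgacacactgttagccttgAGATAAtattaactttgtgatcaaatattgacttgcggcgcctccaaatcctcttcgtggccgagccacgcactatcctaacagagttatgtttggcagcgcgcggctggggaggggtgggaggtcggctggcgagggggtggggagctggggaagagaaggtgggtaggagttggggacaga
Foxa1, chr12:57546112-57546361, minus strand: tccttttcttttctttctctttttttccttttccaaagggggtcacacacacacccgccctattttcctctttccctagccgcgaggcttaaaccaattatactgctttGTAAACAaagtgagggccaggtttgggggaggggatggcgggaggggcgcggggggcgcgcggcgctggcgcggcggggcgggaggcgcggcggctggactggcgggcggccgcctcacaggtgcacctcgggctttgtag
Foxa3, chr7:19023540-19023789, minus strand: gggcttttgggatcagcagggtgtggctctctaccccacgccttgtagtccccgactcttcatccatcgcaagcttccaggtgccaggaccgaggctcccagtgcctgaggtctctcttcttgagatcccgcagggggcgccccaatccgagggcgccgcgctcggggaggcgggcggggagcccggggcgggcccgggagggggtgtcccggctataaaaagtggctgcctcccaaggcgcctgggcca
Hnf4a, upstream start, chr2:163506607-163506856, plus strand: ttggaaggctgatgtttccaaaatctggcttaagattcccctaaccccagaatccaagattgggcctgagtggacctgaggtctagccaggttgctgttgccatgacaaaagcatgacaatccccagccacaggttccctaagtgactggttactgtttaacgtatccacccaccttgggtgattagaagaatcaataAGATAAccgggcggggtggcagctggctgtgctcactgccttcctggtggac
The motifs were searched on both strands and did not overlap where they matched. For GATA factors the letters were AGATAA, also TGATAA, also AGATAG, also TGATAG, and 26.5% of 32851 such windows held 1 or more. The Foxa2 window had a GATA match 183 bases before its start and the Hnf4a window 1 at 52 bases. Forkhead letters were TGTTTAC, also TATTTAC, also TGTTTGC, also TATTTGC, found in 11.9% of windows, and the Foxa1 window held 1 match, GTAAACA on the strand shown, 141 bases before its start. The SOX letters CATTGT, in 10.69% of windows, and the HNF4 letters CAAAGTCCA, in 0.384%, were not in the 4 windows shown. The Foxa2 windows at its other starts and the Hnf4a window at its downstream start, in the same build, held none of these letters. Prox1 also had 2 starts, with 2 forkhead matches before 1 of them. Gata4, Gata6, Sox17 and Sox7 had no window among those used here, which does not show that the reference lacks them.

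In mutant embryoid bodies the mean ratio was below 0 for all 8 members that could be tested, and the sizes differed along the list. Gata6, Sox17, Sox7, Gata4 and Foxa2 had mean log2 ratios between −2.80 and −1.72, so that the wild type signal was 3.29 to 6.95 times the mutant signal. Foxa1, Hnf4a and Foxa3 lay between −0.52 and −0.14. The median over the 8 was −1.81, against 0.035 over all genes tested, and array medians were −2.55, −1.06 and −1.56. None of the 8 passed the threshold of 0.05 on the limma p-value adjusted over all genes (Benjamini-Hochberg), at which 14 genes, 0.0907% of those tested, were lower and 32, 0.207%, were higher. Unadjusted, 5 members had p under 0.05 in the limma fit, as did 11.3% of all genes in the lower direction, and 4 had an adjusted p under 0.1, a level reached in the lower direction by 3.8% of all genes. The members were chosen with earlier results of these data known, so these counts are descriptions. In the plot of all tested genes the members with large ratios lie below the main cloud at middle to high intensity.

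**Figure D1:**
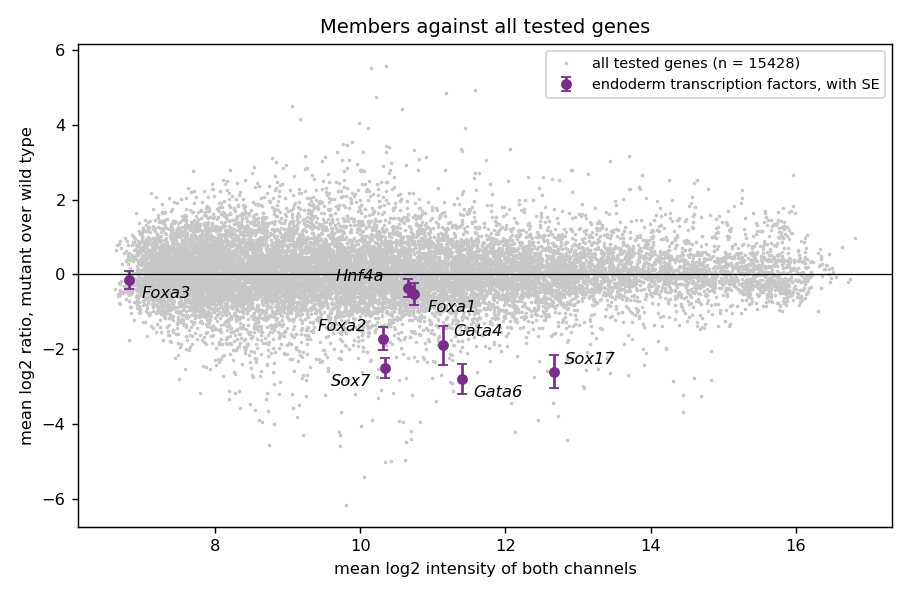
Mean log2 ratio of mutant over wild type against the mean log2 intensity of both channels, for 15428 tested genes (grey points) and the 8 tested members (purple, with error bars of 1 SE from limma, n = 3 arrays). Gata6, Sox17, Sox7, Gata4 and Foxa2 sit between −2.80 and −1.72, and Foxa1, Hnf4a and Foxa3 close to 0.

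Gata6, whose forced expression turns embryonic stem cells into primitive endoderm, was read by 1 probe on chromosome 18. Its intensity, in scanner units, was 902, 1265 and 554 in the mutant samples of replicates 1, 2 and 3 and 17462, 6671 and 4989.8 in the wild type samples on the same arrays. The mutant was lower on every array, and the normalized levels of the genotypes did not overlap. The log2 ratios were −3.80, −2.07 and −2.52, with a mean of −2.80 ± 0.40 (SE of the limma fit, n = 3 arrays; adjusted p = 0.0559, limma). Of all genes tested, 0.441% had a lower ratio. The local background was 33.5 to 41 units at these spots, so the mutant samples still gave a clear signal.

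Gata4, the partner of Gata6 in primitive endoderm and heart, was read on chromosome 14 from 63817858 to 63817917 (mm9). Its intensity was 559, 2752 and 592 in the mutant samples and 6778, 4974 and 3856 in the wild type samples. The wild type samples were close to each other after normalization, at 12.1 ± 0.16 (SD, n = 3, log2 intensity), while the mutant samples spread over 10.2 ± 1.18. The mutant sample of replicate 2 stood highest among the mutant samples, at 11.5, yet below the lowest wild type sample, at 11.9. Log2 ratios were −3.08, −0.56 and −2.05, with a mean of −1.89 ± 0.52 (adjusted p = 0.124, limma). Gata4 had the largest spread between arrays of the 8 members, an SD of 1.27.

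Sox17, the SOXF factor of primitive and definitive endoderm, had 2 probes on chromosome 1 (mm9), from 4481038 to 4481097 and from 4481503 to 4481562, separated by 405 bases. The first and brighter had intensities of 1126, 6509.6 and 1655 in the mutant samples and 19850.1, 20953 and 14769 in the wild type samples. The second had 837, 1479 and 293 in the mutant and 12159, 8069.95 and 2005 in the wild type samples. Both probes were lower in the mutant on every array, with no overlap between genotypes after normalization. The brighter probe gave log2 ratios of −3.67, −1.56 and −2.57, mean −2.60 ± 0.45 (adjusted p = 0.0645, limma), and the other −3.38, −2.14 and −2.06, mean −2.53 ± 0.35 (adjusted p = 0.0566 over all probes, limma). Their difference, the first minus the second, averaged −0.076 ± 0.58 (SD, n = 3), well within its own spread. The 2 probes differed more in how the arrays ranked: on the second, replicate 3 had a ratio close to that of replicate 2.

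Sox7, the other SOXF member and a marker of parietal endoderm, was read on chromosome 14 from 64569419 to 64569478 (mm9). Mutant intensities were 399.6, 738 and 277, and wild type intensities 4540.2, 4889 and 2139. The log2 ratios, −2.94, −2.36 and −2.22, were the most even of the 5 large ones, with an SD of 0.38 across arrays. The mean was −2.51 ± 0.27, with an adjusted p of 0.0502 over genes (limma), just outside the threshold. In the limma fit over the 19142 probes that passed the filter on dim spots and had a value on all 3 arrays it was just inside, with an adjusted p of 0.0481, as were 0.225% of probes in the lower direction. It was the member of smallest p in both fits, and its normalized levels in the 2 genotypes did not overlap.

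Foxa2, the forkhead factor of visceral and definitive endoderm, had 2 probes on chromosome 2 (mm9), which share 5 bases. Probe 2, from 147868614 to 147868673, was used for the gene and had intensities of 690.5, 1404 and 186 in the mutant and 4435, 6656 and 627 in the wild type samples. Replicate 3 was dim in both genotypes, so after normalization the mutant samples of replicates 1 and 2 lay above the wild type sample of replicate 3, although on each array the mutant was lower. Log2 ratios were −2.16, −1.92 and −1.07, mean −1.72 ± 0.31 (adjusted p = 0.0697, limma). Probe 1, from 147868669 to 147868728, was brighter, at 913, 5065 and 952 in the mutant and 14187, 11513 and 6437 in the wild type. On replicate 2 the scanner software marked this spot as an outlier, and it was left out there. Its ratios on replicates 1 and 3 were −3.47 and −2.14, and the left-out value was −0.98. With such spots kept, a setting chosen after seeing the data, probe 1 became the gene's probe, at −2.20 ± 0.51 (adjusted p = 0.0979, limma).

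**Figure D2:**
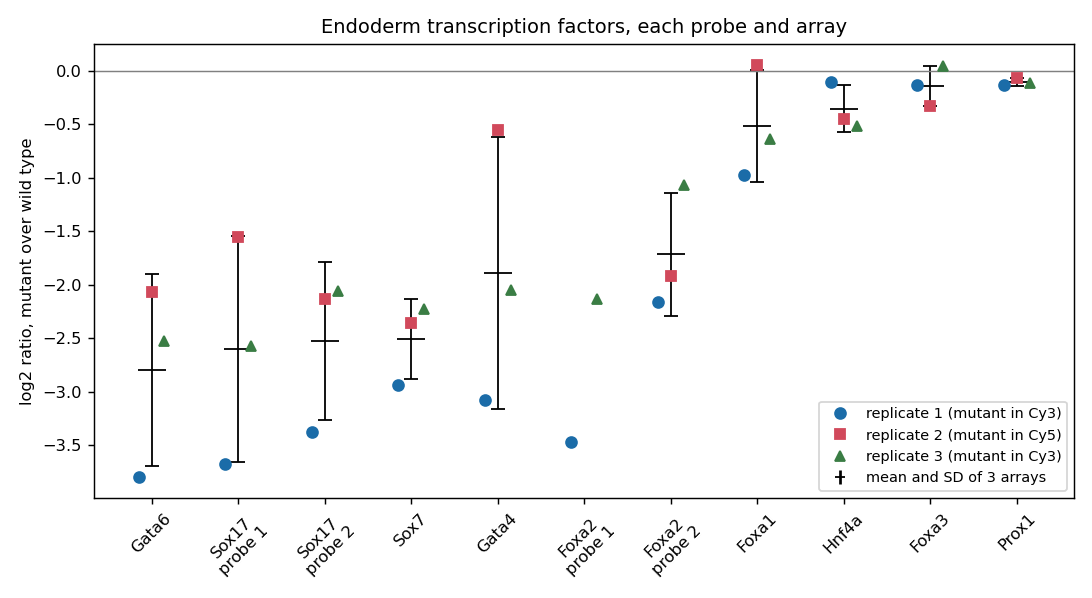
Log2 ratio of mutant over wild type for each of the 11 probes (columns, ordered by the gene's mean ratio), with 1 point per array and the mean and SD where all 3 arrays gave a value. Replicate 1 is lowest at each of the 7 probes of Gata6, Sox17, Sox7, Gata4 and Foxa2, and at Gata4 replicate 2 lies apart at −0.56.

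Foxa1, which shares its DNA-binding domain and many sites with FOXA2, was read on chromosome 12 from 58641764 to 58641823 (mm9). The mutant samples had intensities of 1089.95, 1881 and 811, and the wild type samples 3041, 2276 and 1953. Replicate 2 had nearly equal normalized levels, 10.95 in the mutant and 10.90 in the wild type, and the genotypes overlapped. Log2 ratios of −0.97, 0.056 and −0.64 gave a mean of −0.52 ± 0.30 (adjusted p = 0.37, limma).

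Foxa3, the FOXA factor of later gut and liver, was read on chromosome 7 from 19599053 to 19599112 (mm9). It was dim, at 56.2, 126 and 83.4 units in the mutant and 68.3, 172 and 77.9 in the wild type, over a local background of 31 to 41. The wild type channel was well above background on 3 arrays and the mutant channel on 1. Its mean log2 ratio was −0.14 ± 0.24 (adjusted p = 0.757, limma), with −0.14, −0.33 and 0.043 on the arrays. The offset of 50 units added in background correction draws the ratios of such dim spots towards 0, and no difference was detectable at this signal.

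Hnf4a was read on chromosome 2 from 163398548 to 163398607 (mm9) by a well-lit probe. Its intensities were 909, 2788 and 659 in the mutant samples and 1407, 4698 and 1472 in the wild type samples. Both genotypes were highest on replicate 2, so that levels overlapped between genotypes while the ratios stayed small and even. The log2 ratios were −0.11, −0.45 and −0.51, with a mean of −0.36 ± 0.24 (adjusted p = 0.441, limma). All 3 were below 0, as they were for 6 of the 8 members and for 22.7% of all genes. Its SD across arrays, 0.22, was smaller than that of any member with a large ratio.

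Prox1, on chromosome 1 from 191945785 to 191945844 (mm9), was well above background in both channels of replicate 1 and in neither channel of the others. Intensities were 82.7, 46.5 and 44.95 in the mutant and 95.1, 46.7 and 55.9 in the wild type, against a background of 35.5 to 41. It was too dim to be tested. The measured log2 ratio was −0.11 ± 0.035 (SD, n = 3), at a signal where little difference could show.

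**Figure D3:**
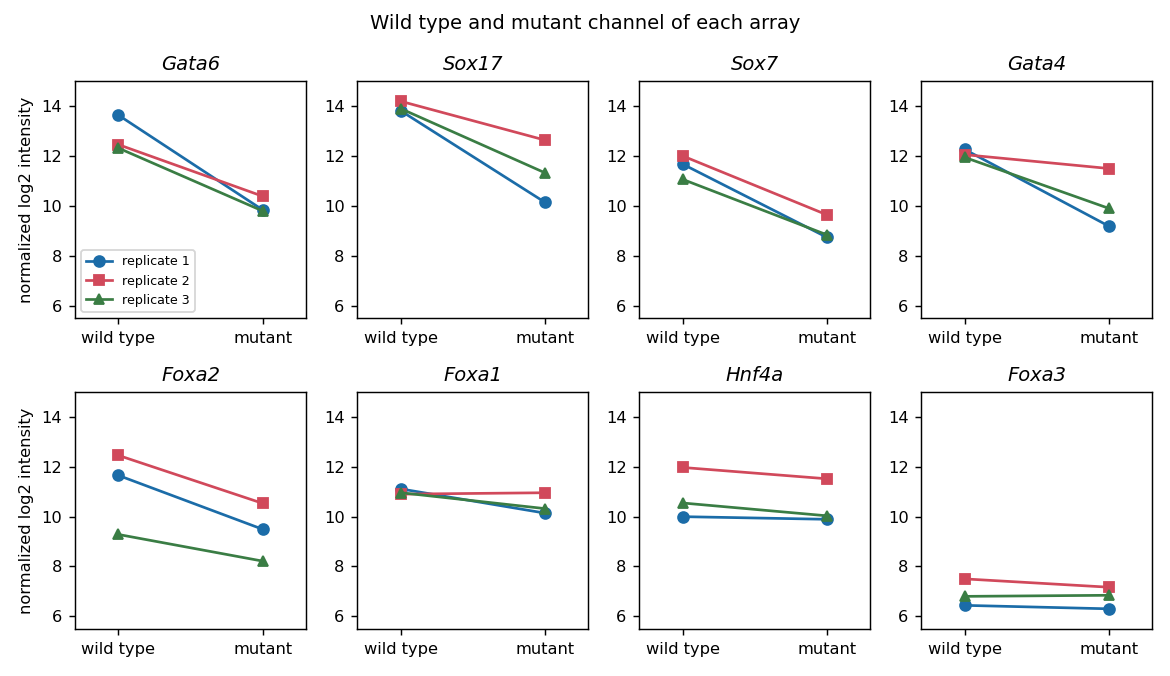
Normalized log2 intensity of the wild type and mutant channel, joined by array, for the tested probe of each of the 8 members, on 1 vertical scale. The 3 lines fall steeply for Gata6, Sox17 and Sox7, the lines for Foxa2 and Hnf4a are set apart by array in both genotypes, those for Foxa3 are nearly level, and for Foxa1 that of replicate 2 is.

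Ordered by mean ratio the genes ran Gata6, Sox17, Sox7, Gata4, Foxa2, Foxa1, Hnf4a, Foxa3. Of the 7 steps between neighbours in this order, 1 had the same sign on every array, the step from Foxa2 to Foxa1, at 1.20 ± 0.77 (SD, n = 3). The other steps changed sign between arrays: Sox17 exceeded Gata6 by 0.20 ± 0.29, and Foxa2 exceeded Gata4 by 0.18 ± 1.34 with replicate 2 in the opposite direction. Of all 28 pairs, 19 kept 1 sign on the 3 arrays. Among these, Gata6 was below Gata4 by 0.90 ± 0.54 and Sox7 was below Foxa2 by 0.79 ± 0.36, and no pair within Foxa1, Hnf4a and Foxa3 was. The pairs were not tested. The normalized levels of the 2 genotypes did not overlap for 4 of the 8 members, Gata6, Sox17, Sox7 and Gata4, as was so in the lower direction for 10.3% of all probes tested.

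Replicate 2 touched the members unequally. Its ratio minus the mean of the other 2 was 2.01 for Gata4, 1.56 for the brighter Sox17 probe, 1.09 for Gata6 and 0.86 for Foxa1, but 0.22 for Sox7, −0.14 for Hnf4a, −0.29 for Foxa3 and −0.31 for the tested Foxa2 probe. Without replicate 2 the ratios were −3.16 for Gata6, −3.12 for Sox17, −2.58 for Sox7, −2.56 for Gata4, −1.61 for Foxa2 and −0.80 for Foxa1, and these 6 passed the threshold (limma, adjusted p from 0.00181 to 0.0216). In that fit 21.7% of all genes were called lower, and its 2 arrays share 1 dye orientation, so dye and genotype cannot be told apart there. With a dye term 5 members passed, with ratios of −2.62 for Gata6, −2.47 for Sox7, −2.34 for Sox17, −1.77 for Foxa2 and −1.56 for Gata4 (limma, adjusted p from 0.00333 to 0.0112), among 14.9% of genes called lower. In both fits only the difference between replicates 1 and 3 gives the residual error. Hnf4a was called in neither, nor was Foxa3. Sox7 was the 1 member that passed after scaling between arrays (limma, among 0.298% of genes called lower), with Agilent's processed signals (0.862%) and with the mean over a gene's probes (0.233%), and Sox7 and Gata6 passed with the channels unpaired (0.622%). No member passed with median centring (0.0194% of genes called lower), without replicate 1 (0.013%) or replicate 3 (0.0583%), without the filter on dim probes (0.00331%), with both channels well above background (0.0076%), with outlier spots kept (0.0895%), with all spots in the background model (0%) or in the authors' deposited values (0%).

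**Figure D4:**
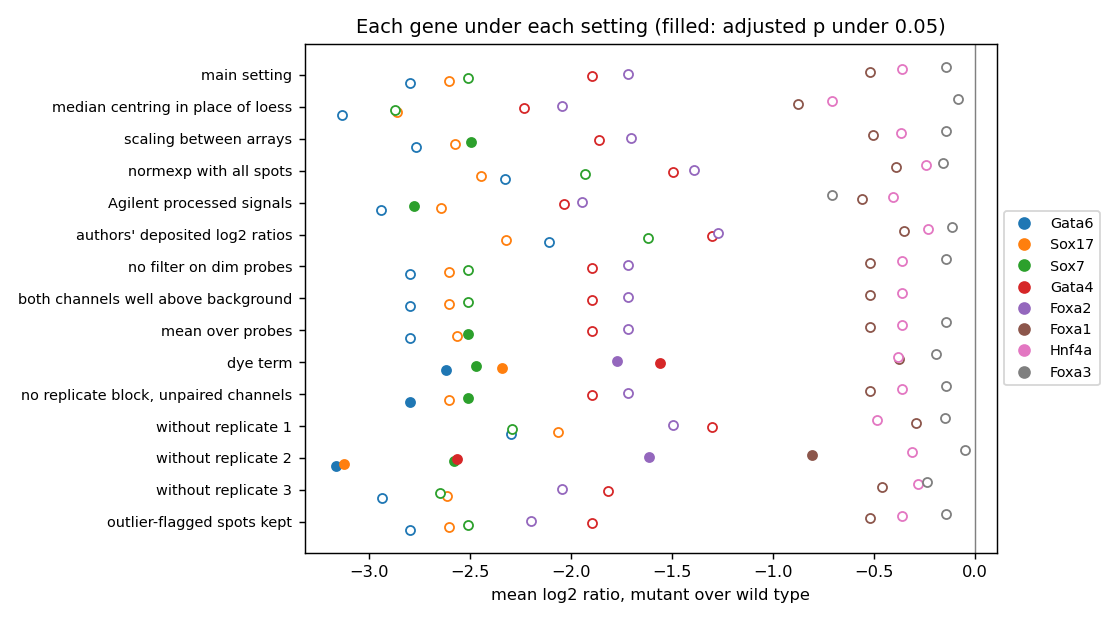
Mean log2 ratio of each of the 8 tested members (colours) under the main setting and 14 alternatives (down the plot), with filled points where the limma adjusted p was under 0.05. All points lie below 0, and filled points gather at the dye term and at the arrays without replicate 2.

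Marker genes of tissues in which these factors act were compared next, and their regulation by the factors was not tested. For reading the counts on this and later lists, 22.7% of all genes tested were below and 21.7% above 0 on every array. At an unadjusted limma p under 0.05, 1747 of 15428 genes were lower and 1755 higher. Some genes passed the filter on dim probes through 1 genotype only, and for them the direction partly follows from the filter. Of the list of primitive and parietal endoderm genes, all 15 were tested, 0 passed (limma; 13 lower at an unadjusted p under 0.05) and 14 were below 0 on every array, with a median log2 ratio of −2.82. Serpinh1, a collagen chaperone, had −3.23 ± 0.33 and Pdgfra, the receptor that marks primitive endoderm, −2.87 ± 0.35 (adjusted p = 0.0502 and 0.0526, limma). Of the visceral endoderm and liver list, 17 of 19 genes were tested and 1 passed, as did 0.0907% of all genes in the lower direction. It was Rbp4, the retinol carrier, at −2.69 ± 0.25 (adjusted p = 0.0432, limma). At an unadjusted limma p under 0.05, 10 of the 17 were lower and 1 higher. The list's median was −1.10, and 12 of the 17 were below 0 on every array. Afp, the alpha-fetoprotein gene, had −2.23 ± 0.24 and Tdh, a threonine dehydrogenase gene also active in embryonic stem cells, 1.62 ± 0.26, the largest ratio of the opposite sign. Apolipoprotein and carrier genes on this list are textbook targets of HNF4A and the FOXA factors, and their regulation was not tested here. Apoa2 had −2.35 ± 0.28 and Ttr −1.93 ± 0.29. Apoc3 had −0.24 ± 0.25 and Apoa4 −0.34 ± 0.25, with the mutant well above background on 2 arrays and 1 array. These 4 were picked after their values were seen.

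Other transcription factors of endoderm lay on both sides of 0. Of 21 on the list, 15 were tested, 0 passed (limma; 3 lower and 1 higher at an unadjusted p under 0.05), 4 were below and 5 above 0 on every array, and the median was 0.15. Nr2f2, an orphan nuclear receptor of mesenchyme and veins as well, had −3.57 ± 0.56 and Sox9, a factor of gut and cartilage progenitors, −1.87 ± 0.30 (adjusted p = 0.0597 for both, limma), each with 2 of 3 mutant samples well above background. Cdx2 and Onecut1, the others below 0 on every array, also had 2 of 3 mutant samples well above background. All 4 thus passed the filter through the wild type only. Nr5a2 had 1.47 ± 0.26 (adjusted p = 0.0677, limma), with all 3 mutant samples well above background, and was picked after its value was seen. Of 9 definitive endoderm markers 8 were tested, 0 passed (limma; 0 at an unadjusted p under 0.05), 0 were below and 2 were above 0 on every array, and the median was 0.63. Eomes, a T-box factor of the primitive streak, had 0.73 ± 0.30 and Cdh1, the E-cadherin gene, 1.21 ± 0.53 with −0.32 on replicate 2. Hhex had 0.57 ± 0.65, with −1.37 on replicate 2. The list leaves out the members Sox17 and Foxa2, at −2.60 and −1.72, which also act in definitive endoderm. Of the 7 remaining paralogs of the 9 members, 2 were tested. They were Gata1, a blood factor, at 0.72 ± 0.24 and Gata3, a trophoblast and lymphoid factor, at −0.00014 ± 0.46.

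Cofactors and inducing signals gave no common direction. Of 7 cofactors 3 were tested and 0 passed (limma; 0 at an unadjusted p under 0.05), with a median of −0.093. The heart factor gene Nkx2-5 had −0.44 ± 0.24, with the mutant well above background on 1 array, and Ctnnb1, the beta-catenin gene, 0.22 ± 0.51. All 11 inducing signal genes were tested, 0 passed (limma; 4 lower and 2 higher at an unadjusted p under 0.05), 4 were below and 3 above 0 on every array, and the median was −0.034. Fgf4, the stem cell growth factor that induces primitive endoderm in the blastocyst, had 2.72 ± 0.37 and Nodal 1.93 ± 0.25 (adjusted p = 0.0543 for both, limma). The hedgehog ligand gene Ihh, made by visceral endoderm, had −2.07 ± 0.30 (adjusted p = 0.0559, limma) and was picked after its value was seen.

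**Figure D5:**
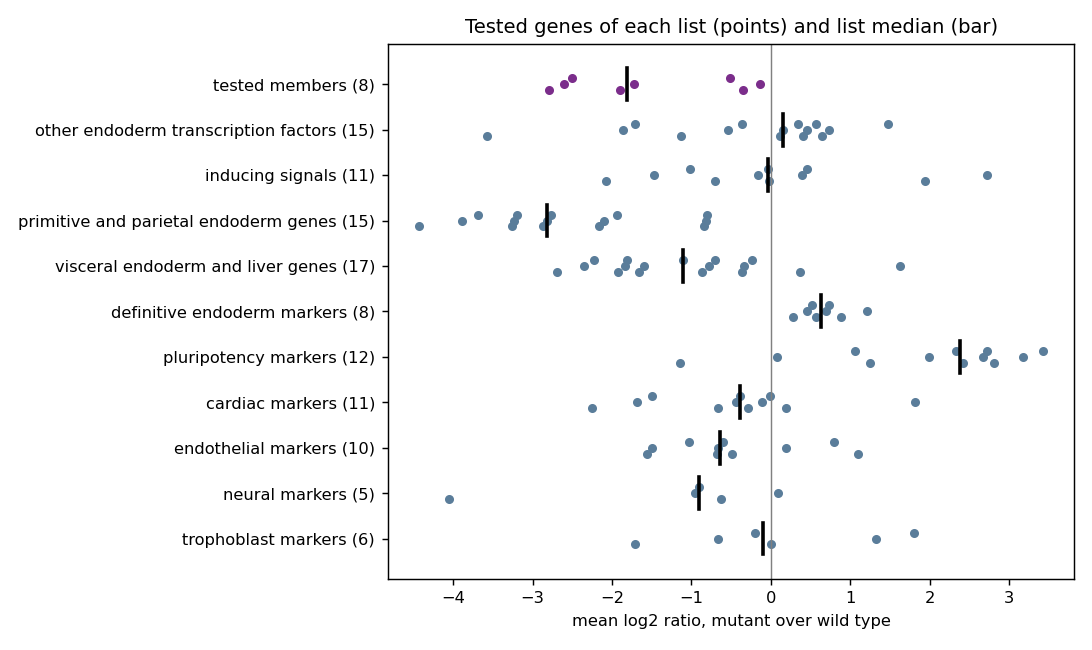
Mean log2 ratio of mutant over wild type for the tested genes of each list (points, with the number tested) and the list median (bar), for lists with at least 5 tested genes. Medians run from −2.82 for primitive and parietal endoderm genes to 2.38 for pluripotency markers, and that of the 8 tested members is −1.81.

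Markers of other cell types were compared as well, and their part in the values of the 9 factors was not tested. All 12 pluripotency markers were tested and 2 passed, as did 0.207% of all genes in the higher direction. They were Zfp42 at 3.17 ± 0.26 and Dppa5a at 2.67 ± 0.24 (adjusted p = 0.0417 for both, limma). Of the 12, 9 were above and 1 below 0 on every array. At an unadjusted limma p under 0.05, 9 were higher and 1 lower. Klf4 had −1.14 ± 0.31, and Nanog had 0.078 ± 0.26 with −0.30 on replicate 2. The mean normalized log2 intensity of the 12 was 12.6 to 13.5 in the mutant and 11.1 to 11.5 in the wild type samples. That of the primitive and parietal endoderm genes was 10.67 to 12.9 in the mutant and 13.5 to 14.6 in the wild type samples. For the visceral endoderm genes it was 9.27 to 11.8 and 10.5 to 12.7, with Alb and Fga not tested. Cardiac markers, relevant to Gata4 and Gata6, had 11 of 14 tested, 0 called (limma; 3 lower and 1 higher at an unadjusted p under 0.05), 5 below and 1 above 0 on every array, a median of −0.39 and mean levels of 7.91 to 8.55 against 8.30 to 9.04. Among them Myh7, a cardiac myosin gene, had −2.25 ± 0.31, with the mutant well above background on 1 array. Myl7, an atrial light chain gene, had −1.69 ± 0.25, and the myosin gene Myh6 had 1.81 ± 0.34. Tbx5, Mef2c and Nppa were not tested, as no probe of theirs passed the filters.

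Endothelial markers, relevant to Sox7, Sox17 and Prox1, had 10 of 15 tested, 0 called (limma; 3 lower and 1 higher at an unadjusted p under 0.05), 6 below and 2 above 0 on every array and a median of −0.64. Their mean levels were 8.16 to 8.69 in the mutant and 8.83 to 8.90 in the wild type samples. Cdh5, the VE-cadherin gene, had −1.49 ± 0.25, with the mutant well above background on 2 arrays. Tek and Lyve1, also below 0 on every array, had the mutant well above background on 0 arrays. Eng, above 0 on every array, had the wild type well above background on 2 arrays. Pdpn, a podoplanin gene also used in epithelia, had −1.56 ± 0.29, whereas Vwf had 1.09 ± 0.33. Among the other markers tested, Kdr had −0.61 ± 0.24, Tek −0.68 ± 0.24, Pecam1 0.19 ± 0.30 and Eng 0.80 ± 0.33. Tie1, Emcn, Flt4, Erg and Sox18 were not tested, as no probe of theirs passed the filters. Of the 7 notochord and floor plate markers, relevant to Foxa2, Noto, Shh, Chrd, Nog and Ntn1 were not tested. T had −0.047 ± 0.24 and Spon1 0.14 ± 0.39, the latter with the mutant well above background on 2 arrays. Of 10 neural markers 5 were tested and 0 called (limma; 1 lower at an unadjusted p under 0.05), with a median of −0.90, Sox1 at −4.04 ± 0.68 and array medians of −0.64, 0.56 and −2.10. Nes, the nestin gene, had −0.90 ± 0.53 and Tubb3, a neuronal tubulin gene, 0.092 ± 0.48. Of 8 trophoblast markers 6 were tested and 0 called (limma, with 1 lower and 2 higher at an unadjusted p under 0.05), with a median of −0.10. Cdx2 had −1.71 ± 0.29, with the mutant well above background on 2 arrays. Tfap2c had 1.32 ± 0.26 and Ascl2 1.80 ± 0.37.

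The genes with the 3 array ratios nearest to those of a member were found by Euclidean distance in log2 units over the 3 arrays, among tested genes outside the 9. For Gata6 they were Lamb1, a laminin chain gene of the basement membrane (distance 0.0815, mean ratio −2.82), Pdgfra (0.297) and Stra6, the receptor gene for retinol-binding protein (0.419). For Sox17 they were Glipr1 (0.3), Fezf2, a forebrain zinc finger gene (0.32), and Kdelr3, a retrieval receptor gene of the secretory pathway (0.398). For Foxa2 they were Wls, which carries Wnt proteins to the surface (0.127), Ghr, the growth hormone receptor gene (0.174), and Fut8, a fucosyltransferase gene (0.234). With 3 arrays these distances describe the size of the ratios rather than a shared pattern over conditions.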

How the data were processed

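RNA of 3 mutant and 3 wild type samples was hybridised in pairs to 3 two-colour arrays. The deposited scanner output was made with Agilent Feature Extraction 10.7.3.1, per the file headers, and holds mean and local background intensity for each spot and dye, not normalized, processed intensity values, and other columns of flags. Per the labels, genotype was assigned by dye. The authors' deposited value table holds log2 ratios, made with limma per the submitters' processing notes, with its version not given in the sources used here. Its columns for replicates 1 and 3 correlated better with each other's scanner files (r = 0.916 and 0.983) than with their own (0.771 and 0.842), so its columns were used only together, as an alternative whose mean and spread do not depend on which column is which.

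With R 4.3.3 and limma 3.58.1, signals were background-corrected by normexp (offset 50) and normalized by loess within arrays, with control spots at weight 0. On replicate 3, 7 spots with a local background over 10 times the median took the median in the background model and were left out. Outlier spots were left out (317, 364 and 438). Levels by channel were scaled with Aquantile. Symbols were updated through the reference table (67.9% of probes matched). A probe was kept if 1 or both genotypes had it well above background on every array. It also needed a value on every array, and genes without such a probe were not tested. The brightest per gene was tested against 0 with lmFit and eBayes (Benjamini-Hochberg over 15428 genes, threshold 0.05, 2 residual and 3.04 prior degrees of freedom). The script was tested on simulated data. Each array pairs 1 mutant with 1 wild type sample. The dyes were not swapped equally, so means keep part of any dye effect. Probes were designed to RefSeq mRNAs, and their coordinates are those of mm9, per the file headers. Exon and UTR annotation was not used here. Figures used matplotlib 3.10.9.

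Members and lists were chosen with earlier results of these data known. Named genes are all 9 members, the 2 genes of smallest p on each other list and the largest of opposite sign, and the 3 nearest genes to Gata6, Sox17 and Foxa2. Others named were picked after their values were seen, as were the 4 windows printed.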

Additional observations from a re-analysis of the deposited data

How the results depend on the processing

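All 8 tested members kept a negative mean ratio under every alternative that gave a value, 14 for each and 13 for Foxa3, which lost its value when both channels had to be well above background. Sox7 ranged from −2.87 to −1.62 and passed the threshold in 6 of 14, Gata6 from −3.16 to −2.11 (3 of 14), Sox17 from −3.12 to −2.07 (2), Gata4 from −2.56 to −1.30 (2), Foxa2 from −2.20 to −1.27 (2), Foxa1 from −0.87 to −0.29 (1), and Hnf4a from −0.71 to −0.23 and Foxa3 from −0.71 to −0.048 (0 each). With 1 array left out the median over members ran from −2.09 to −1.40, members called lower from 0 to 6, and genes called from 3 to 3963 higher and from 2 to 3345 lower, the high ends without replicate 2. Against 32 genes higher and 14 lower, limma called 4 and 3 with median centring, 63 and 46 with scaling between arrays, 235 and 133 with Agilent's processed signals, 1 and 1 without the filter on dim probes, 3 and 1 with both channels well above background, 67 and 36 with the mean over probes, and 2450 and 2301 with a dye term. It called 0 and 0 with all spots in the background model, and 0 and 0 in the authors' deposited values, where 788 and 896, and 1486 and 1571, had an unadjusted p under 0.05. Sox7 was the 1 member called with scaling, with processed signals and with the mean over probes, and 5 members were called with a dye term. With unpaired channels (no replicate block) 178 and 96 genes were called, and of the members Gata6 and Sox7, 2 in all. Keeping outlier spots, an alternative chosen after seeing the data, changed no member's call. The cause of these changes was not tested. Dim signal limits Foxa3 and Prox1.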
